A study of Caenorhabditis elegans with 4 samples.

Results

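The study's gene expression arrays came from 2 independent experiments on wild-type *C. elegans* (strain N2), which the labels call 0731 and 0801, and the comparison described here was that of the 0731 worms with the 0801 worms. All 4 arrays of the series entered it, 2 per experiment. Each experiment held 1 array of worms kept on 200 µM remofuscin (soraprazan, a drug developed to clear lipofuscin) and 1 array of the negative control (NC, 0 µM). Worms were grown at 25 °C on peptone-free mNGM plates with *E. coli* OP50, moved to the treatment plates as 3-day-old (1-day) adults and collected as whole animals after 14 days. Neither the labels nor the methods say what else set the 2 experiments apart, and each array is 1 pool of worms, given as about 350 per concentration in the design text and about 600 in the treatment protocol.

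An adult hermaphrodite is mostly germline by RNA content. Its gonad makes sperm first and then oocytes, the intestine secretes yolk (vitellogenin) that the oocytes take up, and maternal mRNAs and the RNA-binding proteins of germ granules are loaded into the egg. Around the gonad lie the intestine, the body-wall muscle and the epidermis, which lays down the collagen cuticle. In whole-worm RNA, fewer cells of a type and less RNA per cell cannot be told apart.

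On each array 43803 spots were not controls and none of them was saturated. Between 63.3% and 66.6% of these spots were well above background, and the 75th percentile of intensity was 725 (remofuscin) and 603 (NC) for 0731 and 669 (remofuscin) and 786 (NC) for 0801. Levels below are scaled signals, in which each array's 75th percentile was set to 1000. The 4 arrays shared 1 slide, on which the 0731 arrays held positions 1 (NC) and 2 (remofuscin) and the 0801 arrays positions 3 (NC) and 4 (remofuscin), so that experiment and place on the slide cannot be told apart. The lowest correlation between arrays of 1 treatment was that of the NC pair (Pearson's r = 0.969 over 29061 probes, which are not independent replicates). It was 0.985 for the remofuscin pair, 0.988 within 0731 and 0.981 within 0801.

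The defining markers of the germline (7 of 7), intestine (6 of 6), body-wall muscle (3 of 3) and pharynx (2 of 2) were all well above background on all 4 arrays, as were 63 of 69 tested sperm markers. Of the adult epidermis markers, *bli-1* was not tested for lack of signal, and of the neuronal markers *eat-4* was not. Summed over its markers, the germline gave 145410 (remofuscin) and 148356 (NC) in 0731 worms, against 194415 (remofuscin) and 225211 (NC) in 0801 worms. The sum of the intestinal markers was 105371 (remofuscin) and 106816 (NC) in 0731 worms and 148603 (remofuscin) and 160848 (NC) in 0801 worms, and it was mostly the signal of the yolk genes *vit-2* and *vit-6*. The sum of the 33 tested embryonic markers went the other way, at 22549 (remofuscin) and 22910 (NC) in 0731 worms and 14322 (remofuscin) and 12055 (NC) in 0801 worms. Much of it was 1 gene, *sdz-27*. That gene gave 10935 (remofuscin) and 12822 (NC) in 0731 worms and 6114 (remofuscin) and 5861 (NC) in 0801 worms.

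The test was limma's moderated fit of log2 signal on experiment and treatment, over 29061 probes that were well above background on at least 2 arrays. At an adjusted p under 0.05, 6690 of these probes had higher signals in 0731 worms (23%) and 4408 had lower ones (15.2%). With 1 probe per gene, the most intense, 3549 of 14748 genes were higher in 0731 worms (24.1%) and 1865 were lower (12.6%), 36.7% in either direction. These shares are the background for each gene list below. The methods' own limits (2-fold or more, with an unadjusted p under 0.05) took 765 probes as higher (2.63%) and 1186 as lower (4.08%), and 2.34% and 3.41% of genes.

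The fit left 1 residual degree of freedom and gave every probe the same standard error, 0.27 on the log2 scale (n = 2 arrays per experiment), so every call rests on that shared spread and the smallest difference called was 0.63, or 1.55-fold. Without treatment in the fit, 0 probes passed at an adjusted p under 0.05, while 6089 were higher and 4500 lower at an unadjusted p under 0.05. The median difference over all genes was 0.24 rather than 0, and the share of calls that were higher in 0731 worms was 60.3%, against 42.6% when arrays were scaled to their medians and 48.5% after quantile normalization. Each list below was read against the all-gene median, which was 0.18 within remofuscin-treated worms and 0.26 within NC worms.

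Gene span, the length of a gene in the annotation with its introns, moved with the whole comparison. Over the 14748 genes, Spearman's rho between span and the difference was -0.54 (Pearson's r with the logarithm of span -0.50), and it was -0.40 within remofuscin-treated worms and -0.57 within NC worms. Genes of up to 0.768 kb had a median difference of 0.61, with 47.9% higher and 3.18% lower in 0731 worms. Genes of over 7.357 kb had a median of -0.56, with 2.85% higher and 43.9% lower.

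**Figure D1:**
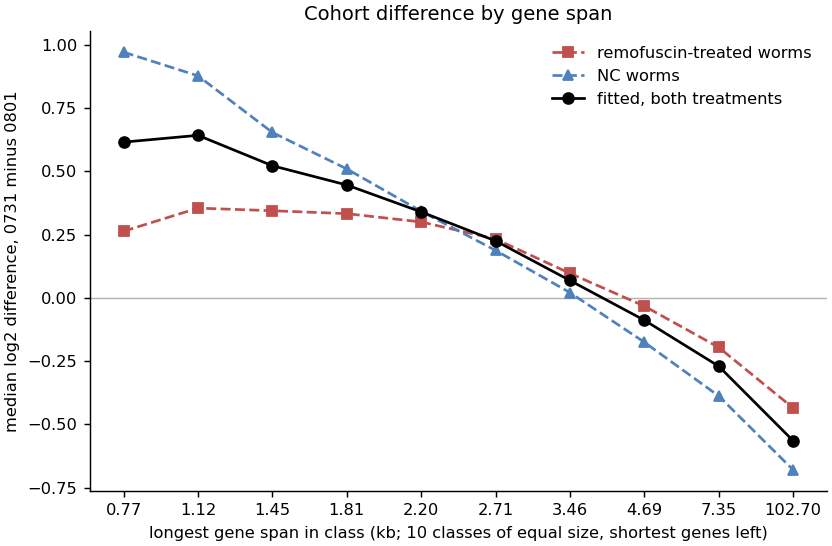
Median log2 difference (0731 minus 0801) over genes in 10 classes of gene span, within remofuscin-treated worms (squares), within NC worms (triangles) and in the fit over both (circles). The fit runs from 0.61 in the shortest class to -0.56 in the longest, all 3 lines fall from the class ending at 1.12 kb onward, and the NC line is the steeper of the treatments.

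The trend was also present without the 0801 NC array. Within remofuscin-treated worms the median ran from 0.26 in the shortest class to -0.43 in the longest. Between the treatments, the difference remofuscin minus NC ran against span in 0801 worms (rho = -0.44, with a median of 0.39 in the shortest class and -0.33 in the longest), whereas in 0731 worms rho was 0.043 (-0.20 and -0.10). The correlations are descriptions over genes that share 4 arrays. Because gene families differ in length, the lists are also described after every array was centred on the median of genes of like span, a setting chosen after seeing the data, in which 8.37% of genes were higher and 16.4% lower in 0731 worms. Those shares are the background for every count after span centring. The SD that the fit shared over probes was 0.20 in that setting, against 0.27 without it, so smaller differences could be called. Centring takes the all-gene median to near 0 (-0.016 over probes), so a centred median is to be set beside a fitted median less 0.24. The part of gene span in any single list was not tested.

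**Figure D2:**
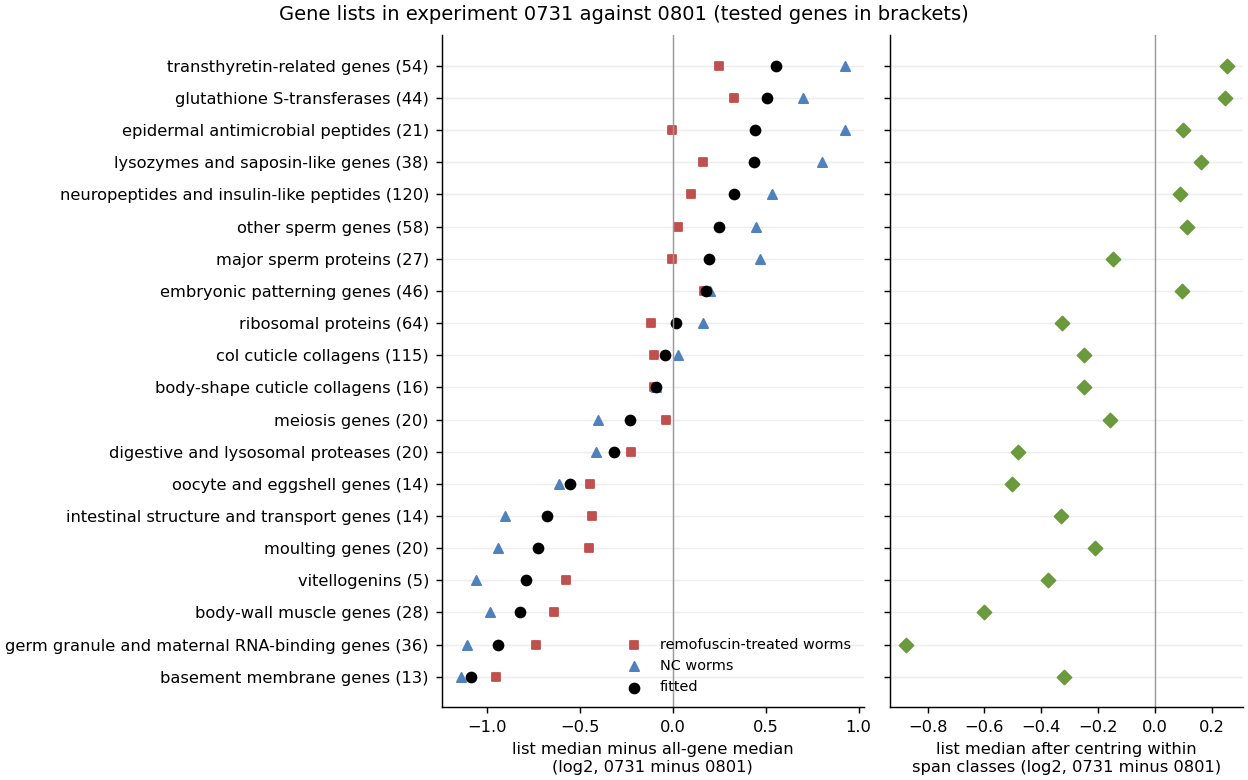
Median log2 difference (0731 minus 0801) of 20 gene lists, with the number of tested genes in brackets. Left, relative to the median of all genes, within remofuscin-treated worms (squares), within NC worms (triangles) and in the fit (circles). Right, after centring within span classes. Germ granule genes and body-wall muscle genes lie furthest left on the right side, at -0.87 and -0.60.

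Genes for germ granules and maternal RNA-binding proteins were lower in 0731 worms. Of 36 such genes, 23 fell and none rose, and the median difference was -0.695 (-0.56 within remofuscin-treated worms and -0.85 within NC worms). In 32 of the 36 both 0731 arrays lay below both 0801 arrays, a pattern that 25.9% of all genes showed. After centring within span classes the median was -0.87 and 31 were lower (median span 2582.5 bp, against 2196 bp over all genes). Relative to all genes the list lay at -0.94 before and -0.87 after that centring. Every one of the 36 lay below the all-gene median.

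*lin-41*, a TRIM-NHL protein that holds oocytes back from maturation, had signals of 125 (remofuscin) and 118 (NC) in 0731 worms, against 336 (remofuscin) and 411 (NC) in 0801 worms. This was the largest fall of the list (-1.61, adjusted p = 3.8e-07), and the experiments did not overlap. *gld-1*, a translational repressor of the meiotic germline, gave 5433 (remofuscin) and 5855 (NC) in 0731 worms and 10234 (remofuscin) and 12908 (NC) in 0801 worms (-1.03, adjusted p = 0.0023). Its 9 probes ranged over -1.30 to -0.72, all on the same side. *gld-2*, a cytoplasmic poly(A) polymerase, was lower by a similar amount (-1.29, adjusted p = 9.8e-05), as was *meg-2*, a P granule gene of the embryo (-1.17, adjusted p = 0.00049).

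*pie-1*, which keeps germline blastomeres transcriptionally silent, had 10389 (remofuscin) and 9478 (NC) in 0731 worms and 17126 (remofuscin) and 21437 (NC) in 0801 worms (-0.95, adjusted p = 0.0047). *cgh-1*, a conserved DEAD-box helicase of germline RNP granules, had 14231 (remofuscin) and 13383 (NC) in 0731 worms and 22009 (remofuscin) and 29482 (NC) in 0801 worms (-0.88, adjusted p = 0.0080). *oma-1* (-0.91), *mex-3* (-0.88), *fbf-1* (-0.95), *puf-7* (-0.87) and *prg-1* (-0.68), the worm Piwi protein, fell too.

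The most intense members did not pass the test. *cey-2*, a cold-shock domain protein, had 124525 (remofuscin) and 119196 (NC) in 0731 worms and 127082 (remofuscin) and 118481 (NC) in 0801 worms, a difference of -0.01. *pos-1*, *cey-3* and *spn-4* had differences of -0.15, 0.24 and -0.55. *glh-1* and *pgl-1*, core components of P granules, gave -0.59 and -0.41 (adjusted p = 0.068 and 0.21), although both 0731 arrays lay below both 0801 arrays for each.

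Yolk genes also had lower levels in 0731 worms. Of the 5 tested vitellogenin genes, *vit-6* and *vit-1* fell and the others did not pass on their most intense probe. The other probe of *vit-4* gave -0.83 and that of *vit-5* -0.72, both beyond the smallest difference called (0.63). *vit-6* had 15608 (remofuscin) and 15083 (NC) in 0731 worms and 30741 (remofuscin) and 31833 (NC) in 0801 worms (-1.03, adjusted p = 0.0023). *vit-1* had 10627 (remofuscin) and 3760 (NC) in 0731 worms and 19152 (remofuscin) and 8463 (NC) in 0801 worms (-1.01, adjusted p = 0.0028), so that here the experiments overlapped and each was higher with remofuscin. *vit-2*, *vit-4* and *vit-5* differed by -0.44, -0.47 and -0.55, with both 0731 arrays below both 0801 arrays in each. Vitellogenin genes are long (median span 5197 bp), near-identical copies may share signal between probes, and after span centring the list median was -0.37 with the same 2 genes lower.

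Among 14 oocyte and eggshell genes, 4 fell and none rose (median -0.31, -0.50 after span centring with 6 lower). *cbd-1*, a chitin-binding eggshell protein, had 21603 (remofuscin) and 22857 (NC) in 0731 worms and 34942 (remofuscin) and 43764 (NC) in 0801 worms (-0.82, adjusted p = 0.013). *egg-1*, needed for fertilization and egg activation, had 10328 (remofuscin) and 10126 (NC) in 0731 worms, against 17046 (remofuscin) and 20321 (NC) in 0801 worms (-0.86, adjusted p = 0.0094). *chs-1*, the eggshell chitin synthase, and *mbk-2*, a kinase of the oocyte-to-embryo transition, differed by -0.85 and -0.93. The yolk receptor *rme-2* gave 60764 (remofuscin) and 63597 (NC) in 0731 worms and 71990 (remofuscin) and 82217 (NC) in 0801 worms, which did not pass (-0.31, adjusted p = 0.36). *perm-2*, *cpg-1* and *cpg-2*, also eggshell genes, lay between -0.32 and 0.03 on their most intense probes. Their other probes reached down to -0.75 (*perm-2*), -0.86 (*cpg-1*) and -0.62 (*cpg-2*).

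**Figure D3:**
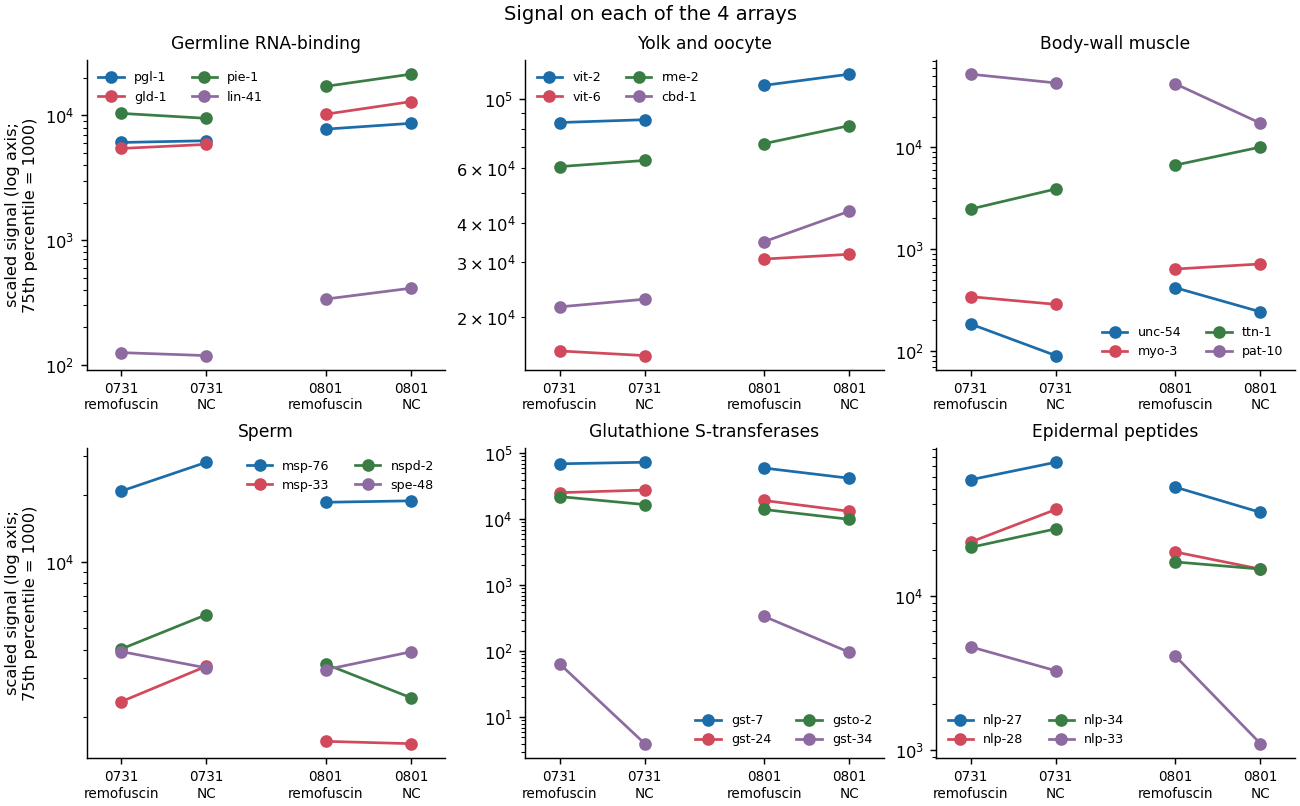
Scaled signal (log axis) of named genes on each of the 4 arrays, joined within an experiment, 0731 on the left and 0801 on the right of each panel. The germline genes *gld-1*, *pie-1* and *lin-41* and the muscle genes *unc-54*, *myo-3* and *ttn-1* are lower on both 0731 arrays, and *pat-10* and the glutathione S-transferase *gst-24* are higher.

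Genes of meiosis were called in both directions, 15% higher and 5% lower, both below the shares of all genes (24.1% and 12.6%). Of 20, *syp-2* (0.72), *syp-3* (0.83) and *spo-11* (0.84) rose and *cosa-1* (-0.75) fell, and the list median was 0.01. *syp-2* and *syp-3* encode central parts of the synaptonemal complex, *spo-11* the enzyme that makes meiotic breaks and *cosa-1* a crossover factor. *spo-11* had 6274 (remofuscin) and 4676 (NC) in 0731 worms and 3194 (remofuscin) and 2856 (NC) in 0801 worms. After span centring none of the 20 was higher and 4 were lower, beside 8.37% and 16.4% of all genes. Of 30 DNA replication and cell division genes, 7 fell and 1 rose (median -0.29, and 12 lower and 0 higher after span centring). The helicase gene *mcm-2* (-0.82), the B-type cyclin *cyb-3* (-0.82) and the kinase *plk-1* (-0.66) were among those lower, and *cdk-1* was the one higher (0.73). *top-2* also fell by 0.92 on its most intense probe, but its 6 probes ranged over -0.92 to 1.06. Histone genes, short and nearly identical in sequence, sat at the all-gene median (0.24, 4 higher and 1 lower of 47), and after span centring had a median of -0.34 with 13 lower and none higher. *his-72*, the H3.3 variant, gave -0.34.

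Sperm genes did not follow the oocyte genes. The major sperm proteins, the cytoskeletal proteins of crawling sperm that also signal to oocytes, had a median difference of 0.44, with 2 of 27 higher and none lower. In 24 of the 27 both 0731 arrays lay above both 0801 arrays (46.4% of all genes did so). *msp-76* had 20807 (remofuscin) and 28089 (NC) in 0731 worms and 18538 (remofuscin) and 18813 (NC) in 0801 worms, a difference of 0.37 that did not pass. *msp-33* rose (0.88, adjusted p = 0.0085), with 2338 (remofuscin) and 3379 (NC) in 0731 worms and 1549 (remofuscin) and 1512 (NC) in 0801 worms. These genes span a median of only 384 bp and are near-identical, so that probes cannot be assigned to single copies with confidence. Relative to all genes the list lay at 0.20, and at -0.015 when the 0731 NC array was left out. Centred within span classes its median was -0.15 with none called, and within remofuscin-treated worms it was 0.17, next to 0.18 over all genes.

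Of 58 other sperm genes, 25 rose and 3 fell (median 0.49, 0.21 within remofuscin-treated worms and 0.71 within NC worms). The rises included members of the small *nspd* and *ssp* families. *nspd-2* had 4039 (remofuscin) and 5774 (NC) in 0731 worms and 3452 (remofuscin) and 2434 (NC) in 0801 worms (0.74, adjusted p = 0.024). The largest rise was *spe-58* (1.11, adjusted p = 0.0010), with 48.3 (remofuscin) and 94.5 (NC) in 0731 worms and 21.3 (remofuscin, not well above background) and 45.9 (NC) in 0801 worms. The falls were *gsp-4*, a sperm PP1 phosphatase (-0.89), *spe-41*, a calcium channel of sperm that acts in fertilization (-0.80), and *spe-18* (-0.76). After span centring 4 of the 58 were higher and 11 lower. *spe-48* differed by 0.01.

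Of 46 early embryonic genes 15 rose (32.6%, against 24.1% of all genes) and 3 fell. The median was 0.42, and after span centring it was 0.10 with 2 higher and 7 lower. Over all genes the balance of calls turned as well, from 24.1% higher and 12.6% lower to 8.37% higher and 16.4% lower. *med-1* and *med-2*, GATA factors that specify mesendoderm, rose by 0.86 and 0.88, and *end-3*, which specifies endoderm, by 0.63 (adjusted p = 0.0498). *med-1* had 48.9 (remofuscin) and 45.5 (NC) in 0731 worms and 27.99 (remofuscin) and 24.1 (NC) in 0801 worms. Because *med-1* and *med-2* are near-identical, they are not independent. *sdz-27*, a target of the blastomere regulator SKN-1, had 10935 (remofuscin) and 12822 (NC) in 0731 worms and 6114 (remofuscin) and 5861 (NC) in 0801 worms (0.98, adjusted p = 0.0035) and remained higher after span centring (0.56, adjusted p = 0.040). *pal-1*, the Caudal homologue, gave 0.37 and did not pass. The falls were *lin-26* (-0.87), *pha-4*, the pharynx-specifying FoxA factor (-0.85), and *ref-1* (-0.66).

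Few cuticle collagens were called as fitted, but more were called lower after span centring. Of 115 tested *col* genes, 12 were higher and 4 lower, both below the shares of all genes, and the median was 0.20. *col-80*, which differed more between treatments than between experiments, had 11077 (remofuscin) and 658 (NC) in 0731 worms and 18405 (remofuscin) and 1223 (NC) in 0801 worms, so it was lower in 0731 within each treatment (-0.81, adjusted p = 0.014) although the experiments overlapped. *col-13* was higher within each treatment (1.22, adjusted p = 0.00025), with 368 (remofuscin) and 29.4 (NC) in 0731 worms and 256 (remofuscin) and 7.79 (NC, not well above background) in 0801 worms. *col-133* lacked a signal well above background in NC worms, and its signals with remofuscin were 28.2 in 0731 worms and 79.1 in 0801 worms. The most intense, *col-122* and *col-63*, gave -0.10 and -0.15. After span centring the *col* median was -0.25, with 3 of the 115 higher and 34 lower, beside 8.37% and 16.4% of all genes. When 1 array was left out, so that the experiments no longer held the same treatments, the list lay between -0.97 and 0.68 relative to all genes.

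The body-shape collagens, whose mutants are dumpy, roller or long, had a median of 0.15, with none of 16 higher and *dpy-13* (-0.73), *rol-8* and *sqt-3* called lower. After span centring 5 of the 16 were lower (median -0.25), beside 16.4% of all genes. The 0731 NC signal of these 3 genes was not well above background, so the size of each fitted difference was not fully measured. *dpy-13* had 756 (remofuscin) and 18.3 (NC, not well above background) in 0731 worms, against 1361 (remofuscin) and 28.2 (NC) in 0801 worms. *sqt-3* had 31.8 (remofuscin) and 6.42 (NC, not well above background) in 0731 worms and 56.7 (remofuscin) and 42.4 (NC) in 0801 worms. None of 6 furrow collagens passed (median 0.24, -0.14 after span centring). The adult-stage collagens *col-19*, *col-7* and *col-63* gave 0.20, 0.23 and -0.15. *col-19* had 11080 (remofuscin) and 2068 (NC) in 0731 worms and 10446 (remofuscin) and 1663 (NC) in 0801 worms. Among 24 cuticlins 1 was higher and 2 lower, with *cutl-22* at 0.95 and *cutl-20* at -0.79, and 4 were higher and 4 lower after span centring.

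Moulting genes were lower as a list, with 7 of 20 down and *bli-5*, a protease inhibitor, up (median -0.48, -0.21 after span centring with 6 lower and 2 higher). *nhr-23*, the nuclear receptor that drives each moult, had 589.7 (remofuscin) and 596 (NC) in 0731 worms and 1120 (remofuscin) and 1359 (NC) in 0801 worms (-1.06, adjusted p = 0.0018). *nhr-25*, another nuclear receptor of the epidermis, *mlt-10*, *noah-1* and the megalin homologue *lrp-1* fell by 0.87, 1.01, 0.82 and 1.29. Of 59 hedgehog-related and patched-related genes, 10 were higher and 8 lower (16.9% and 13.6%, against 24.1% and 12.6% of all genes). Their median was -0.01, and -0.18 after span centring. In that setting 6 were higher and 15 lower, beside 8.37% and 16.4% of all genes. *ptc-1*, the Patched homologue that the germline needs for cytokinesis, had 5582 (remofuscin) and 5204 (NC) in 0731 worms and 9016 (remofuscin) and 11701 (NC) in 0801 worms (-0.93, adjusted p = 0.0056). *ptr-2*, a patched-related gene, fell by 0.82, while *wrt-5* rose by 0.83.

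The antimicrobial peptides of the epidermis, which wounding and fungal infection are known to induce, were higher. Of 21 tested *nlp* and *cnc* peptides, 13 rose and none fell (median 0.68), but the level differed by treatment. The median was 0.17 within remofuscin-treated worms, at the all-gene value of 0.18, and 1.19 within NC worms. *nlp-29*, the best-studied of them, had 8118 (remofuscin) and 13164 (NC) in 0731 worms and 6012 (remofuscin) and 5606 (NC) in 0801 worms (0.83, adjusted p = 0.012). *nlp-33* had the largest difference (0.88, adjusted p = 0.0080), and its signal was lowest on the 0801 NC array. The genes span a median of 452 bp, and after span centring none passed in either direction (median 0.10).

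Body-wall muscle genes were lower, 13 of 28, against 2 that were higher (median -0.58, and -0.60 after span centring with 15 lower and none higher). *unc-54*, the major myosin heavy chain of body-wall muscle, had 184 (remofuscin) and 90.1 (NC) in 0731 worms and 418 (remofuscin) and 242 (NC) in 0801 worms (-1.30, adjusted p = 7.9e-05). The minor heavy chain *myo-3* had 341 (remofuscin) and 287 (NC) in 0731 worms and 637 (remofuscin) and 715 (NC) in 0801 worms (-1.11, adjusted p = 0.0010). *unc-15*, the thick-filament core protein paramyosin, fell by 1.12, and *deb-1*, the dense-body protein vinculin, by 1.07.

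The giant sarcomere proteins differed most as fitted. *ttn-1*, a titin-like protein, had 2472 (remofuscin) and 3895 (NC) in 0731 worms and 6678 (remofuscin) and 10043 (NC) in 0801 worms (-1.40, adjusted p = 1.8e-05). *unc-89*, the obscurin homologue, had 22.4 (remofuscin, not well above background) and 27.1 (NC) in 0731 worms and 90.2 (remofuscin) and 129.5 (NC) in 0801 worms (-2.13, adjusted p = 1.2e-12). The *unc-89* gene is long, at 55184 bp, and after span centring it differed by -1.535. Its other probe gave -1.19 as fitted. *unc-22* (twitchin), not well above background in 0731 worms, entered the test only through 0801 worms and had to differ. As a description, it was at least 3.04-fold lower. The 2 members that rose are short genes. *pat-10*, the troponin C of body-wall muscle, had 52200 (remofuscin) and 42792 (NC) in 0731 worms and 42029 (remofuscin) and 17214 (NC) in 0801 worms (0.81, adjusted p = 0.014), and the myosin light chain *mlc-1* rose by 0.66. The actin genes *act-1* and *act-4* fell (-0.68 and -0.69), and *act-3* gave -0.63 (adjusted p = 0.051). The actin genes are near-identical, and the probes of *lev-11* (-0.66 to 0.09) and *dim-1* (-0.77 to 0.20) had both signs.

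**Figure D4:**
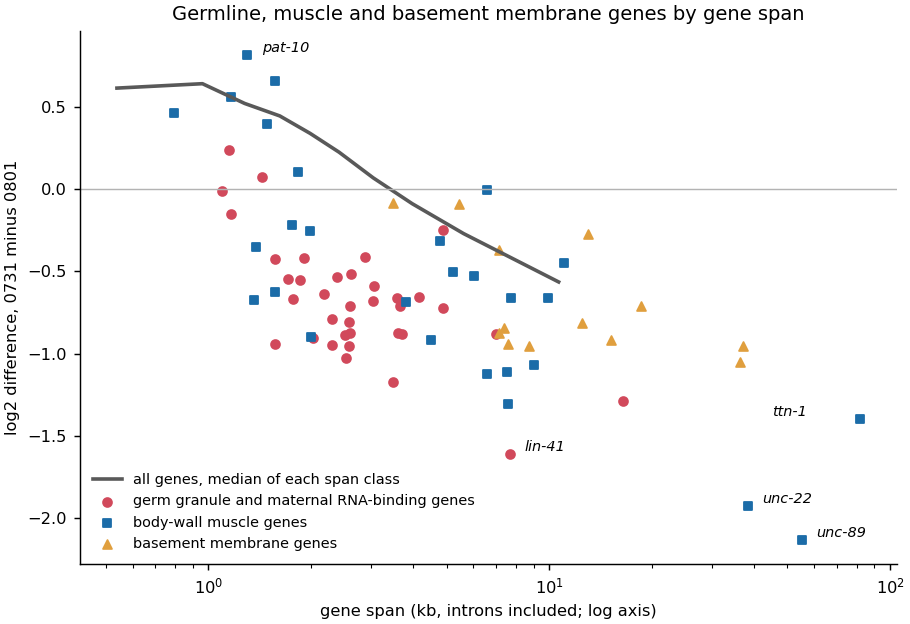
Log2 difference (0731 minus 0801) of each gene of 3 lists against its gene span (log axis), with the median of all genes in each of 10 span classes as a line. Most germ granule genes (circles) and many body-wall muscle genes (squares) lie below the line, while basement membrane genes (triangles) are long and lie around or under its right end.

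Basement membrane genes, the collagens and laminins that sheath muscle and gonad, had the lowest median of all lists with at least 5 tested genes (-0.84, 9 of 13 lower, none higher). The type IV collagens *emb-9* and *let-2* had 579 and 415 (remofuscin) and 544 and 428 (NC) in 0731 worms, and 1046 and 709 (remofuscin) and 1112 and 941 (NC) in 0801 worms (-0.94 and -0.96). Perlecan, *unc-52*, gave -0.95 on its most intense probe, with other probes up to 0.71. These are long genes (median span 8744 bp), and after span centring the median was -0.32 with 3 lower.

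In the pharynx, *myo-2*, its own myosin heavy chain, had 159 (remofuscin) and 153 (NC) in 0731 worms and 276 (remofuscin) and 382 (NC) in 0801 worms (-1.06, adjusted p = 0.0018), whereas the troponin C gene *tnc-2* rose (0.73). *tni-4* and *tnt-4* gave 0.34 and -0.40. Of 11 pharyngeal gland and cuticle genes, *phat-8* and *phat-6* rose and *phat-7* fell (median -0.48), and 7 were lower after span centring.

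Intestinal genes depended on the family. Of 14 structural and transport genes, *erm-1* (-0.82), *ifb-2* (-0.65) and *ifo-1* (-0.85), which shape the apical membrane and its intermediate filament sheath, fell and none rose (median -0.43, -0.33 after span centring with 5 lower). *erm-1* had 2684 (remofuscin) and 2660 (NC) in 0731 worms and 4162 (remofuscin) and 5347 (NC) in 0801 worms. *elt-2*, the GATA factor that specifies the intestine, was nearly equal, with 304 (remofuscin) and 304 (NC) in 0731 worms, against 304 (remofuscin) and 297 (NC) in 0801 worms (0.02). *ges-1*, the gut esterase, gave 0.07. Of 20 digestive and lysosomal proteases, 1 was higher and 2 lower (median -0.07), and after span centring 2 were higher and 9 lower (median -0.48). *asp-1*, the most intense, gave -0.48 and did not pass, and *asp-11* fell by 1.25 at a low signal.

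The small secreted effectors of the intestine were higher. Of 38 lysozymes and saposin-like (caenopore) genes, 23 rose and none fell (median 0.68, 0.34 within remofuscin-treated worms and 1.06 within NC worms). *spp-5* had 61480 (remofuscin) and 69438 (NC) in 0731 worms and 45638 (remofuscin) and 36180 (NC) in 0801 worms (0.69, adjusted p = 0.034). *lys-2* had 24745 (remofuscin) and 17411 (NC) in 0731 worms and 17899 (remofuscin) and 9809 (NC) in 0801 worms (0.65, adjusted p = 0.044). *lys-7* gave 0.35. After span centring 1 of the 38 was higher (median 0.16, median span 1012 bp).

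Of 115 C-type lectins, 19 were higher and 12 lower (16.5% and 10.4%, both below the shares of all genes), with a median of 0.28. After span centring 7 were higher and 20 lower (median -0.083), beside 8.37% and 16.4% of all genes. *clec-58* had 21.4 (remofuscin) and 4.14 (NC, not well above background) in 0731 worms and 92.9 (remofuscin) and 18.4 (NC) in 0801 worms. Of 28 *pals* genes, some of which respond to intracellular pathogens, 8 were higher and 1 lower, at a median of 0.55 that was similar within remofuscin-treated worms (0.51) and NC worms (0.55), and 5 were higher after span centring. *pals-24* had 8957 (remofuscin) and 6882 (NC) in 0731 worms and 6684 (remofuscin) and 3979 (NC) in 0801 worms (0.61, adjusted p = 0.060).

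Of 15 lipid-binding proteins and fatty acid desaturases, 7 rose and none fell (median 0.59, 0.19 after span centring). They were *lbp-1*, *lbp-3*, *lbp-4*, *lbp-5*, *lbp-6* and *lbp-7*, at 0.66 to 0.88, and the stearoyl-CoA desaturase *fat-7* (1.22, adjusted p = 0.00025). *fat-7* had 107 (remofuscin) and 121 (NC) in 0731 worms and 35.6 (remofuscin) and 66.8 (NC) in 0801 worms and was also higher after span centring (0.79, adjusted p = 0.011). Among 5 lysosomal lipases *lipl-2* rose (0.78). Of 55 fatty acid activation and beta-oxidation genes, 4 were higher and 4 lower (median -0.05), and *acs-4*, an acyl-CoA synthetase, and *cpt-1*, a carnitine palmitoyltransferase, were among the lower.

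Glutathione S-transferases, which conjugate xenobiotics to glutathione, were higher in 29 of 44 (65.9%, against 24.1% of all genes), with 1 lower (median 0.75, 0.50 within remofuscin-treated worms and 0.96 within NC worms). *gst-24* had 25363 (remofuscin) and 27807 (NC) in 0731 worms and 19319 (remofuscin) and 13228 (NC) in 0801 worms (0.73, adjusted p = 0.024). *gsto-2*, an omega-class member, had 22143 (remofuscin) and 16747 (NC) in 0731 worms and 14105 (remofuscin) and 10005 (NC) in 0801 worms (0.70, adjusted p = 0.031). The most intense, *gst-7* and *gst-1*, gave 0.51 each and did not pass. *gst-34* was the exception, with 64.8 (remofuscin) and 3.98 (NC, not well above background) in 0731 worms and 338 (remofuscin) and 96.3 (NC) in 0801 worms. Between the remofuscin arrays, where both signals were measured, it differed by -2.38. After span centring 5 were higher and 2 lower (median 0.25, median span 1291 bp).

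Fewer members of the other detoxification families were called, and the contrast lay in the NC pair. Within NC worms the median was 0.23 for UDP-glucuronosyl transferases and 0.18 for cytochrome P450 genes, against 0.96 for glutathione S-transferases. Within remofuscin-treated worms the 3 medians were 0.43, 0.40 and 0.50. Of 58 UDP-glucuronosyl transferases 2 were higher and none lower (median 0.34), and of 61 cytochrome P450 genes 7 were higher and 2 lower (median 0.26), all below the shares of all genes. After span centring the transferases had 1 higher and 2 lower (median 0.05) and the P450 genes 3 higher and 2 lower (median 0.013). *ugt-44* had 3685 (remofuscin) and 1867 (NC) in 0731 worms and 2738 (remofuscin) and 1550 (NC) in 0801 worms (0.35, adjusted p = 0.29). ABC transporters, long genes with a median span of 6610.5 bp, were lower in 6 of 24 (median -0.32), but after span centring 1 was higher and 1 lower (median -0.13). *mrp-4* had 1421 (remofuscin) and 1491 (NC) in 0731 worms and 3180 (remofuscin) and 3847 (NC) in 0801 worms (-1.265, adjusted p = 0.00014, and -1.09 after span centring).

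Of 13 small heat shock proteins and inducible HSP-70 genes, 7 rose and none fell (median 0.64, 0.05 after span centring). *hsp-16.2* had 25869 (remofuscin) and 28783 (NC) in 0731 worms and 20482 (remofuscin) and 13963 (NC) in 0801 worms (0.69, adjusted p = 0.033), and *hsp-12.6*, which rose by 0.94, is a target of the longevity factor DAF-16. *hsp-70* gave 0.21. Of 13 antioxidant genes 3 were higher, near the share of all genes (23.1%, against 24.1%), and none lower. They were the thioredoxins *trx-1* (0.74) and *trx-2* (0.70) and the superoxide dismutase *sod-3* (0.66). The most intense, *prdx-2*, gave -0.40 and did not pass. The catalases *ctl-1*, *ctl-2* and *ctl-3* gave -0.44, -0.38 and -0.56 and did not pass as fitted. After span centring the catalases and *prdx-2* (-0.89) were lower, and the list had 4 lower and none higher. Of 11 metallothionein, ferritin and metal response genes 5 were higher (median 0.63, none after span centring), namely *mtl-2*, *cdr-1*, *cdr-2*, *cdr-4* and *cdr-7*.

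Genes that every cell uses were also listed, although in whole-worm RNA their signal sums over all tissues. The 64 ribosomal protein genes had a median of 0.26, with 1 higher and 1 lower. The one higher was *rpl-42*, whose probe was not well above background in 0801 worms, so that it entered the test only through 0731 worms. *rps-20*, the most intense, had 382368 (remofuscin) and 433499 (NC) in 0731 worms and 363045 (remofuscin) and 337357 (NC) in 0801 worms (0.22). Of 32 proteasome subunits 1 was higher and 4 lower (median -0.02), with the large base subunit *rpn-1* at -1.09 (adjusted p = 0.0013) and *pas-3* at 0.34. Of 20 V-ATPase subunits, which acidify lysosomes, 5 were lower and none higher (median -0.27), led by *vha-13* (-0.94, adjusted p = 0.0051). Nuclear-encoded respiratory chain genes had 6 higher and 5 lower of 42 (14.3% and 11.9%, against 24.1% and 12.6% of all genes). Their median was 0.12, with *sdha-1*, the flavoprotein of complex II, at -0.97. After span centring these 4 lists had medians of -0.33, -0.43, -0.51 and -0.30.

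Of 120 neuropeptide and insulin-like peptide genes, 50 were higher and 3 lower (41.7% and 2.5%, against 24.1% and 12.6% of all genes), with a median of 0.57. After span centring the median was 0.09 with 8 higher and 21 lower, beside 8.37% and 16.4% of all genes. *nlp-40*, an intestinal peptide of the defecation cycle, had 10250 (remofuscin) and 11793 (NC) in 0731 worms and 6500 (remofuscin) and 4672 (NC) in 0801 worms (1.00, adjusted p = 0.0031). It is long for this list, at 5343 bp, and was also higher after span centring (1.17, adjusted p = 0.00048). *ins-22* and *nlp-80* rose by 0.81 and 0.79. Of 18 synaptic and neurotransmitter genes 2 were higher and 5 lower (median -0.17, median span 6109.5 bp), and 3 higher and 4 lower after span centring (median -0.036). *egl-3* and *egl-21*, the proprotein convertase and carboxypeptidase that mature neuropeptides, fell by 0.95 and 0.72, the syntaxin gene *unc-64* rose by 0.69 and the synaptobrevin gene *snb-1* gave -0.07.

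Transthyretin-related genes, a nematode family of small secreted proteins, had 41 of 54 higher and 1 lower, the highest median of the lists with at least 5 tested genes (0.80, 0.42 within remofuscin-treated worms and 1.19 within NC worms). *ttr-47* had 3399 (remofuscin) and 3915 (NC) in 0731 worms and 2139 (remofuscin) and 1452 (NC) in 0801 worms (1.05, adjusted p = 0.0019). The 4 most intense, *ttr-51*, *ttr-2*, *ttr-15* and *ttr-45*, gave 0.21 to 0.39 and did not pass. After span centring 1 was higher and 1 lower (median 0.25). Of 287 F-box genes 108 were higher and 7 lower (median 0.53), but 24 and 19 after span centring (median 0.10). Nuclear hormone receptors sat at the all-gene median (0.24), with 31 of 201 higher and 16 lower, and 20 and 19 after span centring. Of 227 chemoreceptors, out of 1576 on the array, 83 were higher and 46 lower (median 0.40), and 42 and 58 after span centring (median 0.11). Relative to all genes the chemoreceptors lay at 0.16, and at -0.15 with no filter on dim probes. The filter needs signal on 2 arrays, so a chemoreceptor seen in only 1 experiment could enter only by differing.

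The largest differences of single genes lay at low signal. Of the 12 largest rises among genes detected on both 0731 arrays, only *nlp-36* and *K04G2.10* were well above background on all 4 arrays. A gene detected in 1 experiment alone entered the test only through that experiment and had to differ, so its bound is given as a description. *nlp-36*, a neuropeptide-like gene, had 2343 (remofuscin) and 2841 (NC) in 0731 worms and 452 (remofuscin) and 1442 (NC) in 0801 worms (1.68, adjusted p = 1.0e-07). *K04G2.10* had 183 (remofuscin) and 179 (NC) in 0731 worms and 55.2 (remofuscin) and 67.3 (NC) in 0801 worms (1.57, adjusted p = 8.8e-07). *rpl-42*, a ribosomal protein, was at least 2.09-fold higher in 0731 worms, where "at least" sets a signal not well above background at the lowest signal that was. *F35H12.1* was at least 2.11-fold higher, the calmodulin-like *cal-7* at least 1.56-fold and the nuclear receptor *nhr-140* at least 1.49-fold.

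Of the 12 largest falls, 9 had no signal well above background in 0731 worms. *Y46G5A.41* was at least 11.54-fold lower in 0731 worms, with 8.24 (remofuscin) and 3.96 (NC), against 450 (remofuscin) and 110 (NC) in 0801 worms. The GATA factor *elt-4* was at least 6.33-fold lower, with 4.06 (remofuscin, not well above background) and 5.09 (NC, not well above background) in 0731 worms and 431 (remofuscin) and 34.4 (NC) in 0801 worms. The bounds of *Y46G5A.41* and *elt-4* average in the 0801 remofuscin signal, which was over 4 times that of every other array. They hold only if that signal does. *C42D8.9* was at least 6.49-fold lower and *nhr-77*, whose 0801 signals were alike at 47.81 (remofuscin) and 52.02 (NC), at least 2.59-fold lower.

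The remofuscin array of 0801 stood apart at such probes. It held 59 probes with a signal over 50 that was more than 4 times that of every other array, against 1, 4 and 1 probes on the 0731 remofuscin, 0731 NC and 0801 NC arrays. Of these 59 probes, 58 lay in rows 175 to 371 of the 532 rows of the array, and 26 were tested, all called lower in 0731 worms. They include 5 of the 12 largest falls, *Y46G5A.41*, *elt-4*, *T26H5.8*, *sri-21* and *Y77E11A.8*. Within NC worms, without that array, the differences of *Y46G5A.41* and *elt-4* were -4.79 and -2.76, in both with the 0731 signal not well above background. The part of this region of the array in these falls was not tested.

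The cohort difference could be read once within each treatment. Both readings set the same 2 experiments, and the same sides of the slide, against each other. They therefore show how alike the difference was in the 2 treatments and do not replicate it in other cohorts. Over the 29061 probes, 85.3% had the same sign within remofuscin-treated and within NC worms, with Pearson's r = 0.74 and Spearman's rho = 0.76 across probes. The spread over probes was smaller within remofuscin-treated worms (SD 0.55) than within NC worms (SD 0.78). Only 3 genes were at least 2-fold higher in 0731 within NC worms and at least 2-fold lower within remofuscin-treated worms, and 6 the reverse. In the same fit, treatment moved fewer probes than experiment did, with 915 higher (3.15%) and 562 lower (1.93%) in remofuscin-treated worms.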

How the data were processed

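Whole-worm RNA was labelled with Cy3 and hybridised to 4 single-colour Agilent *C. elegans* arrays. The authors deposited scanner intensity values (gProcessedSignal, corrected for background within each array by Feature Extraction 11.5.1.1 per the file headers) and a table of log2 values of the same arrays, of which 99.97% to 99.99% per array lay within 0.01 of log2 intensity, so it was not scaled between arrays and served as an alternative. The array number limits the precision.

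Spots that were controls or carried an outlier mark were dropped, repeated spots of a probe were averaged, and log2 intensity minus each array's 75th percentile was fitted with limma 3.58.1 (R 4.3.3) on experiment and treatment, two-sided, with Benjamini-Hochberg adjustment over the 29061 probes well above background on at least 2 arrays. The design holds the pairing, since each treatment occurs in each experiment. Whether the pools behind the arrays differ only by experiment is not stated. The p-values rest on how far the experiment difference disagreed between the 2 treatments, as 1 SD (0.27) shared by all probes. They do not measure the spread between cohorts, since each side is 1 experiment. Of 43603 probes, 34319 (78.7%) matched 19813 genes by sequence name or accession in an NCBI RefSeq table (WBcel235), which also gave gene span. The array's names are older, and unmatched probes stayed unnamed. A gene stands for its most intense probe. The scripts were tested on simulated data.

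The members and the 47 gene lists were chosen with earlier results of these data known. The name rule of the chemoreceptor list was corrected after the values were seen, to drop serpins and other families. A list of genes of the mitochondrial genome had no probe under those names. Named genes are the 12 largest rises and 12 largest falls among called genes detected above background by both arrays of whichever experiment was higher and alike in direction within each treatment, the 4 most intense members and the largest called difference of each list, all members of lists of up to 12, called members of the germline, sperm, cuticle, intestine and muscle lists, and cell type markers. *nlp-29*, *spp-5*, *lys-2*, *lys-7*, *hsp-16.2*, *hsp-12.6*, *hsp-70*, *acs-4*, *cpt-1*, *nhr-23*, *ptc-1* and other members named outside this rule were chosen after their values were seen. Alternatives were other scaling (median, quantile), normexp background correction (offset 50), the deposited table, other filters, no treatment term, an intensity trend, robust moderation, each array left out, the methods' t-test, each gene's mean over its probes and, added later, centring within 20 classes of gene span.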

Additional observations from a re-analysis of the deposited data

Results flagged for a closer look

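For 5 gene lists the 0731 minus 0801 median, relative to that of all genes, had opposite signs within the treatments, by a gap of over 0.25. The difference between treatments was not tested, since each rests on 1 array against 1. Major sperm proteins gave -0.00277 within remofuscin-treated worms and 0.47 within NC worms, and epidermal antimicrobial peptides gave -0.00263 within remofuscin-treated worms and 0.926 within NC worms, so that the relative rise of both lists came from the NC pair. Ribosomal proteins gave -0.118 within remofuscin-treated worms and 0.163 within NC worms. The detoxification families ran the other way, with cytochrome P450 genes at 0.221 within remofuscin-treated worms and -0.0793 within NC worms and UDP-glucuronosyl transferases at 0.253 within remofuscin-treated worms and -0.0284 within NC worms.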

How the results depend on the processing

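The pairing by treatment is part of the fit, and with no replicate block 0 probes were higher and 0 lower at an adjusted p under 0.05 (706 and 1128 at the methods' limits, and 6089 and 4500 at an unadjusted p under 0.05). The methods' t-test, after Benjamini-Hochberg adjustment, also gave 0 and 0 (330 and 586 at their limits, and 2404 and 2399 at an unadjusted p under 0.05). Leaving out each array in turn, which leaves 3 arrays and no treatment term and assumes that the lone array varies like the others, gave 0 to 80 probes higher and 0 to 188 lower, and 558 to 3639 higher and 669 to 2480 lower at the methods' limits. The 0 calls of limma came without the 0801 NC array (3225 higher and 3209 lower at an unadjusted p under 0.05) and without the 0801 remofuscin array (8434 and 6262). In the main fit the counts were 6690 and 4408, and 765 and 1186 at the methods' limits.

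Probes higher and lower numbered 4024 and 5430 with median scaling (391 and 1885 at the methods' limits), 5018 and 5334 after quantile normalization (483 and 1597), 575 and 2871 with the deposited log2 values (333 and 2113), 5706 and 3649 with normexp (83 and 296), 1636 and 2004 with no filter (1357 and 1746), 7137 and 4618 with signal required on all 4 arrays (429 and 883) and 2259 and 4397 after span centring (344 and 1063). The share of calls that were higher was 16.7% with the deposited values and 33.9% after span centring.

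The following list medians are relative to that of all genes. Oocyte and eggshell genes (-0.555) lay at -0.4296 with no filter and between -0.6807 and -0.3867 with 1 array left out. With no filter, histones lay at 0.1255, body-shape collagens at 0.03349, furrow collagens at 0.1218, C-type lectins at -0.07599, chemoreceptors at -0.1545 and nuclear receptors at 0.04597, each with the sign turned. Body-shape collagens lay at 0.07492 with signal required on all 4 arrays. With 1 array left out, *col* collagens lay between -0.9658 and 0.6799, body-shape collagens between -0.9723 and 0.8542, furrow collagens between -0.3989 and 0.3914, cuticlins between -0.07118 and 0.07034, hedgehog-related and patched-related genes between -0.3394 and 0.2363, pharyngeal gland and cuticle genes between -0.7398 and 0.1878, lysosomal lipases between -0.03151 and 0.2265 and UDP-glucuronosyl transferases between -0.1256 and 0.3119. Major sperm proteins (0.1959) lay at -0.01544 without the 0731 NC array and 0.4446 without the 0731 remofuscin array, glutathione S-transferases between 0.1804 (without the 0801 NC array) and 0.739, cytochrome P450 genes between -0.1913 and 0.2243, and ribosomal proteins between -0.1194 and 0.176. After span centring vitellogenins lay at -0.3791, major sperm proteins at -0.1503, *col* collagens at -0.2552, cuticlins at 0.1663, intestinal structure genes at -0.3342, C-type lectins at -0.08694 and ribosomal proteins at -0.3303. For the single genes followed, 230 values kept their direction and side of the threshold, 132 kept only the direction and 0 reversed. The cause of these changes was not tested. Depth is not known for arrays, and differences under 1.55-fold (0.63) could not be called in the main fit. After span centring smaller differences were called, such as *sdz-27* at 0.56.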
